A study of Mus musculus with 9 samples.

Results

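Fezf2, Emx1, Neurod1, Neurod6, Slc17a7, Nrgn, Icam5, Itpka, Nptx1 and Dkk3 are genes of the excitatory neurons of cortex and hippocampus, and they were followed here in mouse substantia nigra. These 10 genes, of 17097 genes named on the array, were selected on measured values. Most of them stood high in replicate 1 of the arrays labelled 10 mg/kg methylphenidate (MPH). All 14 probe sets that carry their symbols were used, of 45037 probe sets in all, and where 1 probe set stands for a gene it is the one with the highest mean over the 9 arrays. In 10 of 10 genes, replicate 1 of the arrays labelled 10 mg/kg had the highest value of the 9 arrays. It exceeded the average of the remaining 8 by a median of 1.369 in log2 units. In comparisons between the other arrays, the same genes had a median log2 fold change of -0.042 in 10 mg/kg replicates 2 and 3 against saline (0.074 without the replicate number as a block in the fit), and of -0.068 at 1 mg/kg against saline. Both medians changed sign when single arrays were left out. None of the 10 passed an adjusted p of 0.05 in limma in either comparison, and with the block 0% of all probe sets did. The test at 1 mg/kg took its estimate of the spread from all 9 arrays, the array of the choice included.

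The study asked what chronic exposure to MPH, a psychostimulant that blocks the reuptake of dopamine and noradrenaline, does to the basal ganglia of mice. Swiss Webster mice received 10 mg/kg MPH, 1 mg/kg MPH or saline by intraperitoneal injection from postnatal day 28 for 3 months, and the substantia nigra was dissected after 7 days without drug. RNA was hybridised to an Affymetrix mouse array, with 3 arrays in each of the 3 groups, and the values are log2 intensities. No genetic alteration was used and all groups share strain, injection schedule and dissection. The labels do not say whether arrays of 1 group came from separate mice, so p-values measure the spread between arrays, which may be technical in part. Groups are called here by the deposited labels. The supplementary lists of the study pair the dose names with these arrays the other way round, and the array values do not settle which is right.

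Excitatory pyramidal neurons of the cortex and hippocampus use glutamate, which the vesicular transporter Slc17a7 (VGLUT1) loads into synaptic vesicles. Their identity is set up by transcription factors of the dorsal telencephalon, among them Emx1, Fezf2 and the NeuroD family, and their dendritic spines hold large amounts of calmodulin-binding and actin-binding proteins. The substantia nigra itself is built of dopamine neurons and GABA neurons, and its glutamatergic neighbours in thalamus and midbrain use the related transporter Slc17a6 (VGLUT2). Several dopamine neuron genes were bright in every array. Lmx1b, also of the dopamine neuron list, was at 2.94 to 3.29, at the level of negative control probe sets. Th, the rate-limiting enzyme of dopamine synthesis, was measured at 10.45, 10.63 and 10.51 in the arrays labelled 10 mg/kg, at 10.31, 10.48 and 10.53 at 1 mg/kg and at 11.18, 11.13 and 10.99 in saline. In bulk tissue, fewer cells of a type and less RNA per cell cannot be told apart.

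The stretches before the transcription start of the 3 genes with the largest excess in replicate 1 are shown, so that the largest values can be set beside their sequence. Promoters came from RefSeq on the GRCm38.p6 build, which matched 8 of the 10 genes. Each run below holds the 250 bases upstream of the start, 5′ to 3′ on the strand of the gene. Capitals mark E-boxes (CANNTG), the core bound by basic helix-loop-helix factors such as the NeuroD proteins, and GC boxes (GGGCGG, on both strands). The 2 motifs shared 0 bases in these windows. Icam5 (chr9:21031788-21032037, plus strand), Neurod6 (chr6:55681264-55681513, minus strand) and Itpka (chr2:119742087-119742336, plus strand) read as follows.
Icam5: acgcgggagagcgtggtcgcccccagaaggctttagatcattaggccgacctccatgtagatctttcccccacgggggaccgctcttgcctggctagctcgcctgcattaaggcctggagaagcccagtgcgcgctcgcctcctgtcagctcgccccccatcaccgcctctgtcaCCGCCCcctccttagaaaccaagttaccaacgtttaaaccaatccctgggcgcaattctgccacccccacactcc
Neurod6: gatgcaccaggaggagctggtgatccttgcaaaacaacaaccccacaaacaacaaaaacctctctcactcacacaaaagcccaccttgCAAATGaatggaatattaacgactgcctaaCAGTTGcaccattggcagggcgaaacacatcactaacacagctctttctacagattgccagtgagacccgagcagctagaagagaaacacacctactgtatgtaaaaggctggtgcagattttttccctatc
Itpka: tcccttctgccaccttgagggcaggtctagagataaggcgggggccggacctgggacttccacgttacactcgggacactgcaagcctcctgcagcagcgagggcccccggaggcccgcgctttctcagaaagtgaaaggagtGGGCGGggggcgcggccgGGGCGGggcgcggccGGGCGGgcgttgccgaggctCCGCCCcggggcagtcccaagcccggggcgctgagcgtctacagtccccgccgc
The windows differ in composition. Itpka had 72.8% G and C with 4 GC boxes and 0 E-boxes, Icam5 had 61.6% with 1 GC box and 0 E-boxes, and Neurod6 had 46.0% with 2 E-boxes and 0 GC boxes. Over the 8 matched genes, 5 held an E-box and 7 a GC box, while 66.2% and 32.7% of all 32851 promoters in the table held them. Over all promoters the median was 52.4% G and C, and the matched genes other than Neurod6 ran from 58.4% to 75.6%. The count of GC boxes was not separated from this difference in composition. A match of letters is a description and not a binding site.

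Transcription factors of the excitatory lineage were at low to moderate intensity and shared 1 high array. Fezf2, which specifies the subcortically projecting neurons of the deep cortical layers, was at 5.06, 3.49 and 3.51 in the arrays labelled 10 mg/kg, at 2.98, 3.52 and 3.70 at 1 mg/kg and at 2.98, 3.55 and 3.31 in saline. Replicate 1 at 10 mg/kg stood 1.36 above the next array, more than the whole range of 0.72 over the other 8, and among those 8 the 3 groups overlapped. Neurod1, a proneural factor also known from granule cells, was at 6.59, 5.31 and 5.16 at 10 mg/kg, at 4.78, 5.42 and 5.28 at 1 mg/kg and at 4.61, 5.10 and 5.26 in saline. Its other probe set had 6.32, 4.90 and 4.52 at 10 mg/kg, 4.20, 5.14 and 4.85 at 1 mg/kg and 4.27, 4.65 and 5.10 in saline. Both probe sets of Neurod1 had the same high array and their lowest values in replicate 1 of 1 mg/kg or of saline. Neurod6, a factor of cortical pyramidal neurons that is also known from a small subset of ventral midbrain dopamine neurons, was at 5.48, 3.80 and 3.98 at 10 mg/kg, at 3.12, 3.33 and 3.72 at 1 mg/kg and at 3.26, 4.44 and 3.75 in saline. Here replicate 2 of saline came next after the high array, above both other arrays labelled 10 mg/kg. Emx1, a homeobox factor of the dorsal telencephalon, showed the smallest excess of the 10 genes. Its brighter probe set was at 4.30, 3.71 and 3.69 at 10 mg/kg, at 3.67, 3.69 and 3.78 at 1 mg/kg and at 3.64, 3.89 and 3.93 in saline. The dimmer probe set of Emx1 spanned 3.42 to 3.59 at 10 mg/kg, 3.17 to 3.32 at 1 mg/kg and 3.22 to 3.38 in saline.

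Slc17a7, the vesicular glutamate transporter, was dim. Its values were 4.81, 3.57 and 3.54 at 10 mg/kg, 3.29, 3.77 and 3.72 at 1 mg/kg and 3.29, 3.51 and 3.64 in saline. Without the high array, both remaining 10 mg/kg values lay inside the saline range. Negative control probe sets, which match no mouse transcript, had a median of 2.93 over 23 probe sets, with 3.59 as the second highest and 5.07 as the highest. The mean of the other 8 arrays was under 3.59 for Slc17a7 and Fezf2, so that both sat near background outside the high array, and 7 of the 10 genes were above 3.59 in every array. Neurod6 and Emx1 were little above it, with means of 3.68 and 3.75 over the other 8 arrays. The dimmer probe set of Emx1 had a mean of 3.31 there. A fold change near background is compressed on arrays.

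Postsynaptic and dendritic genes had an excess of 1.07 in Nrgn, 1.74 in Itpka and 2.05 in Icam5. Icam5 (telencephalin), an adhesion molecule on the dendrites of telencephalic neurons, was at 7.19, 5.06 and 5.12 at 10 mg/kg, at 4.64, 5.08 and 5.34 at 1 mg/kg and at 4.71, 5.74 and 5.40 in saline. The high array exceeded the other 8 by 2.05 in log2 units, a 4.15-fold excess and the largest of the 10 genes, while the other 2 arrays labelled 10 mg/kg lay inside the saline range. Itpka, a kinase of inositol trisphosphate that also bundles actin in dendritic spines, was at 6.03, 4.62 and 4.70 at 10 mg/kg, at 3.95, 4.33 and 4.18 at 1 mg/kg and at 3.85, 4.31 and 4.38 in saline. All 3 values at 10 mg/kg were above all 6 others. Nrgn (neurogranin), a postsynaptic protein that binds calmodulin, was at 8.52, 7.71 and 7.49 at 10 mg/kg, at 7.33, 7.97 and 7.91 at 1 mg/kg and at 6.92, 6.91 and 7.38 in saline. Replicates 2 and 3 at 1 mg/kg came next after the high array for Nrgn, as they did for Slc17a7, and saline held the 2 lowest values of Nrgn. Itpka and Nrgn were the 2 genes of 10 with every 10 mg/kg array above every saline array, a pattern found in 10.3% of all probe sets, and the choice of the genes bears on this count.

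Secreted proteins showed a smaller excess. Nptx1, a neuronal pentraxin that gathers glutamate receptors at synapses, was at 8.65, 8.0 and 7.64 at 10 mg/kg, at 7.26, 7.61 and 8.0 at 1 mg/kg and at 7.72, 7.68 and 7.87 in saline. The second probe set of Nptx1 ran lower, with 6.80, 6.15 and 5.81 at 10 mg/kg, 5.54, 5.81 and 5.93 at 1 mg/kg and 5.84, 5.82 and 6.24 in saline. The high array stood out by 0.92 and 0.90 in the 2 probe sets. Dkk3, a secreted glycoprotein of the dickkopf family, was at 7.66, 6.75 and 6.75 at 10 mg/kg, at 6.28, 6.72 and 6.88 at 1 mg/kg and at 6.69, 7.33 and 7.04 in saline. Its second probe set was at 6.86, 6.0 and 5.99 at 10 mg/kg, at 5.51, 5.92 and 6.07 at 1 mg/kg and at 6.27, 6.76 and 6.17 in saline. In that probe set every array labelled 1 mg/kg and both other 10 mg/kg arrays were below every saline array, which held for 1 of the 14 probe sets at 1 mg/kg, against 12.4% of all probe sets. Probe sets with every 1 mg/kg array above every saline array numbered 0 of 14, against 10.7%. With the brighter probe set of Dkk3 the groups overlapped.

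**Figure D1:**
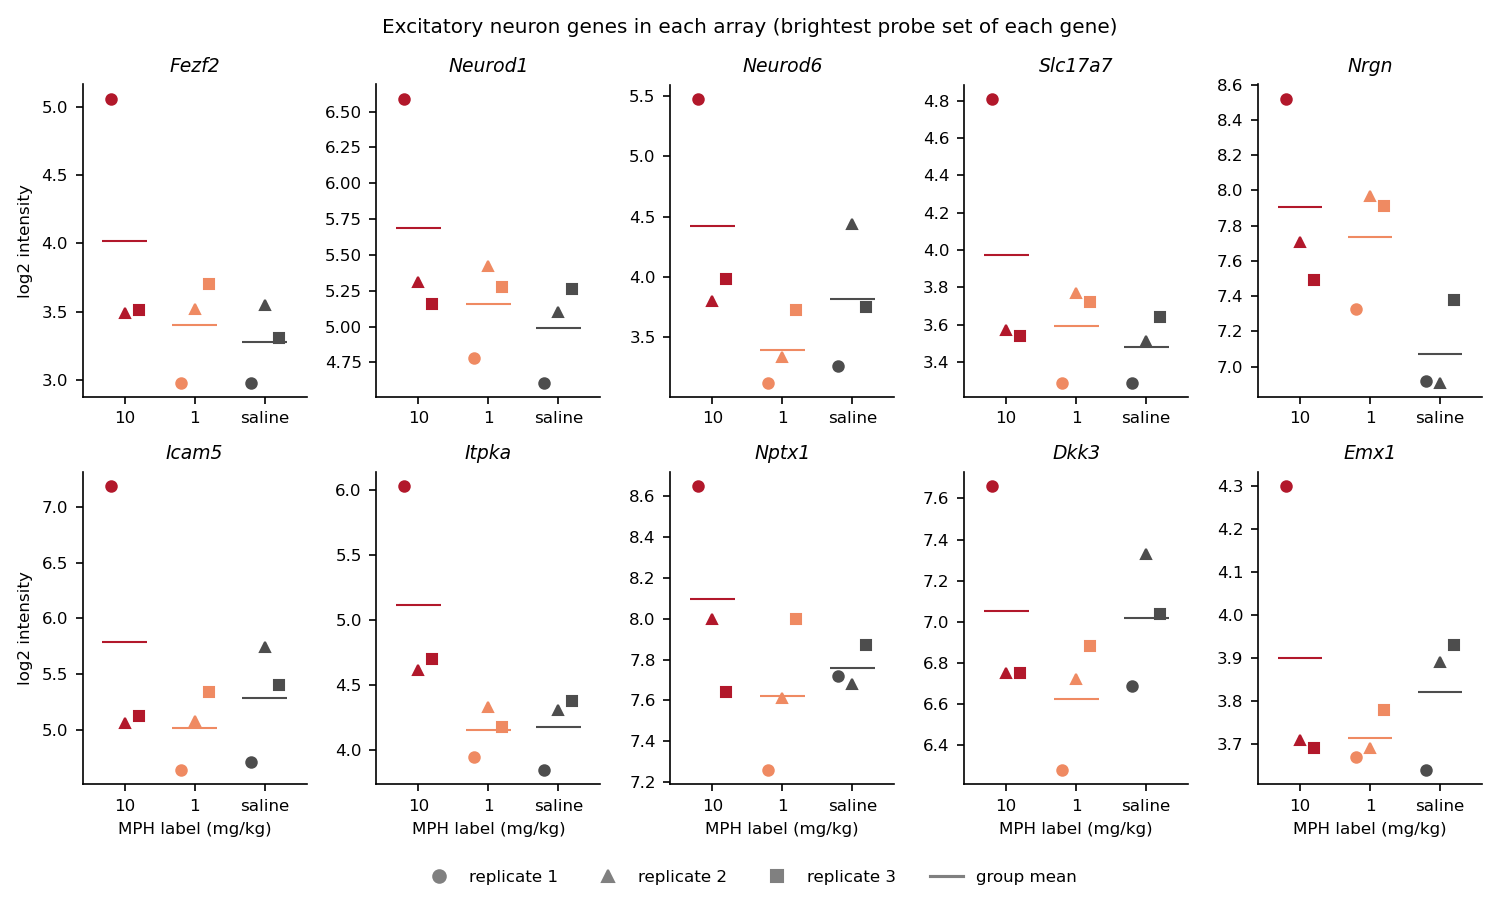
Log2 intensity (vertical axis, own scale for each gene) of the brightest probe set of each of the 10 genes in the arrays labelled 10 mg/kg, 1 mg/kg and saline (horizontal axis), with markers for replicate number and lines at group means. The circle at 10 mg/kg, replicate 1, is the highest of 9 arrays in every panel, by 2.05 over the mean of the other 8 in Icam5 and by 0.55 in Emx1.

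Replicate 1 at 10 mg/kg was highest in 10 of 10 genes and 14 of 14 probe sets, and was highest in 13.3% of all 45037 probe sets. This is the value the genes were chosen by, and it carries no test. The excess ranged from 0.549 to 2.053 with a median of 1.369, against -0.013 over all probe sets. An excess of 1 or more was seen in 7 of the 10 genes and in 0.651% of all probe sets. In 6 of the 10 genes the gap to the next array was wider than the range of the other 8. When each gene was centred on its mean over the 9 arrays, the mean of the 10 genes was 1.19, -0.03 and -0.08 at 10 mg/kg, -0.51, -0.09 and 0.01 at 1 mg/kg and -0.47, 0.01 and -0.04 in saline. Replicate 1 of 1 mg/kg and replicate 1 of saline were thus the 2 low arrays, and they held the lowest value in 9 of the 10 genes, Nrgn being the exception. The mean over the 3 arrays that share a replicate number hardly differed between numbers. For Icam5 these means were 5.51, 5.29 and 5.29 for replicates 1, 2 and 3. ComBat, a correction for batches, was used by the study on the replicates, and the sources used here do not state whether it is part of these values. Its part in the low values was not tested.

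Array medians ran from 4.49 to 4.53, which the normalization of RMA fixes and which therefore says nothing of the array. Over all probe sets, 293 stood 1 or more above the average of the remaining arrays in replicate 1 at 10 mg/kg, and 35 stood 1 or more below it. The difference between the 3′ and 5′ probe sets of Actb, which reflects RNA integrity and labelling, was 1.10, 1.03 and 1.12 at 10 mg/kg, 1.04, 1.19 and 1.13 at 1 mg/kg and 0.88, 0.92 and 0.93 in saline. Replicate 1 at 10 mg/kg lay within the other MPH arrays on this measure, and all 6 MPH arrays were above all 3 saline arrays, so that this measure cannot be told apart from treatment in a comparison with saline. The same difference for Gapdh overlapped between groups, at 0.37, 0.28 and 0.31 at 10 mg/kg, 0.29, 0.41 and 0.22 at 1 mg/kg and 0.23, 0.25 and 0.39 in saline.

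Setting the arrays labelled 10 mg/kg against saline shows how far 1 array carried the group. With all 3 replicates, the 10 genes had log2 fold changes from 0.033 in Dkk3 to 0.939 in Itpka, with a median of 0.557 and with 10 of 10 above 0. Without replicate 1 the median was -0.042. Fezf2 had a log2 fold change of 0.74 (standard error 0.43) with all 3 arrays and 0.04 (standard error 0.12) with replicates 2 and 3. Icam5 had 0.51 (standard error 0.57) with all 3 and -0.43 (standard error 0.15) with replicates 2 and 3. These values with all 3 arrays rest on the array the genes were chosen on and are given without a test.

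In replicates 2 and 3 at 10 mg/kg against saline, in a fit without the array the choice used, 4 genes were above 0 and 6 below. This fit keeps saline replicate 1, where the centred mean of the 10 genes was -0.47. As the means over a replicate number hardly differed, the choice may bear on this comparison too, with or without the block. With replicate number as a block in limma, 0 of 10 genes passed an adjusted p of 0.05, as did 0% of all probe sets, and without the block it was also 0 of 10 and 0%. The adjusted p of the 10 genes ran from 0.547 to 0.972. At an unadjusted p under 0.05, 1 gene was higher, against 3.49% of all probe sets, and 2 were lower, against 4.59%. Without the block the direction of these counts turned, with 2 genes (Itpka and Nrgn) higher, against 6.27% of all probe sets, and 0 lower, against 7.88%. Itpka had a log2 fold change of 0.35 (standard error 0.10, adjusted p = 0.547), and its values of 4.62 and 4.70 at 10 mg/kg were above the highest saline value of 4.38. Icam5 was at -0.43 (standard error 0.15, adjusted p = 0.576) and Dkk3 at -0.44 (standard error 0.12, adjusted p = 0.547), and without the block they were at -0.188 and -0.271. Leaving out saline replicate 2 put Icam5 at -0.211. Nrgn had 0.39 (standard error 0.17, adjusted p = 0.63), with 0.126 when saline replicate 2 was left out and 0.183 when 10 mg/kg replicate 2 was. Genes of dopamine neurons were low in the same comparison, with a median of -0.50 over 16 genes, 15 of them below 0, and the mean level of that list ran from 7.86 to 7.92 at 10 mg/kg and from 8.23 to 8.44 in saline, while 0 of the 16 passed. Serotonin neuron genes had a median of -1.08 with 4 of 5 below 0 and 0 passing. Tph2, the enzyme of serotonin synthesis, was at -3.16 (standard error 0.74, adjusted p = 0.527). Its values were 3.61 and 3.32 in these arrays, against 4.24, 7.47 and 6.96 in saline. The size of its fold change thus rests largely on saline replicates 2 and 3. The part of tissue composition in the values of the 10 genes was not tested.

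The fit of 1 mg/kg against saline used all 9 arrays for its estimate of the spread, the array of the choice included. In it, 4 genes were above 0 and 6 below, with values from -0.428 in Neurod6 to 0.662 in Nrgn. By limma with the block, 0 of 10 genes passed, as did 0% of all probe sets, and without the block 0 of 10 passed against 0.12% of all probe sets. At an unadjusted p under 0.05, 0 genes were higher, against 4.53% of all probe sets, and 0 were lower, against 5.77%. Without the block, 1 gene (Nrgn) was higher, against 8.21%, and 0 were lower, against 10.3%. The standard error of Fezf2 was 0.43 here, against 0.12 for 10 mg/kg replicates 2 and 3, fitted without the array of the choice. That array widens the spread of the chosen genes at 1 mg/kg, so these counts cannot be set against the shares of all probe sets. Nrgn had the lowest adjusted p of the 10 genes in this fit, at a log2 fold change of 0.66 (standard error 0.30, adjusted p = 0.502). Its 1 mg/kg values of 7.33, 7.97 and 7.91 overlapped the saline values of 6.92, 6.91 and 7.38 through 1 array of each group. Neurod6 was at -0.43 (standard error 0.48, adjusted p = 0.789) and Dkk3 at -0.40 (standard error 0.30, adjusted p = 0.673). With 10 mg/kg replicate 1 left out of the fit, the fold changes stayed as they were and the adjusted p was 0.279 for Nrgn, 0.28 for Dkk3 and 0.447 for Neurod6, with 0 of 10 genes passing. Without replicate 1 at 1 mg/kg, which held the lowest value in 6 of the 10 genes, the median of the 10 was 0.197 in place of -0.068. It was also above 0 without saline replicate 2, at 0.126, and without saline replicate 3, at 0.077. Thalamic genes had a median of 0.95 in this comparison with 7 of 8 above 0, at a mean level of 8.04 to 8.38 at 1 mg/kg and 6.57 to 7.71 in saline. Dopamine neuron genes had a median of -0.53 with 15 of 16 below 0, at 7.74 to 7.83 at 1 mg/kg and 8.23 to 8.44 in saline. Serotonin neuron genes had a median of -0.97 with 4 of 5 below 0. Tph2 was at -2.71 (standard error 0.85, adjusted p = 0.418), with 3.88, 3.20 and 3.47 at 1 mg/kg against the same divided saline values of 4.24, 7.47 and 6.96. With the block, 0 genes of these 3 lists passed, and without it 4 dopamine neuron genes did. The part of these lists in the values of the 10 genes was not tested. The 10 mg/kg and 1 mg/kg comparisons share their saline arrays.

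**Figure D2:**
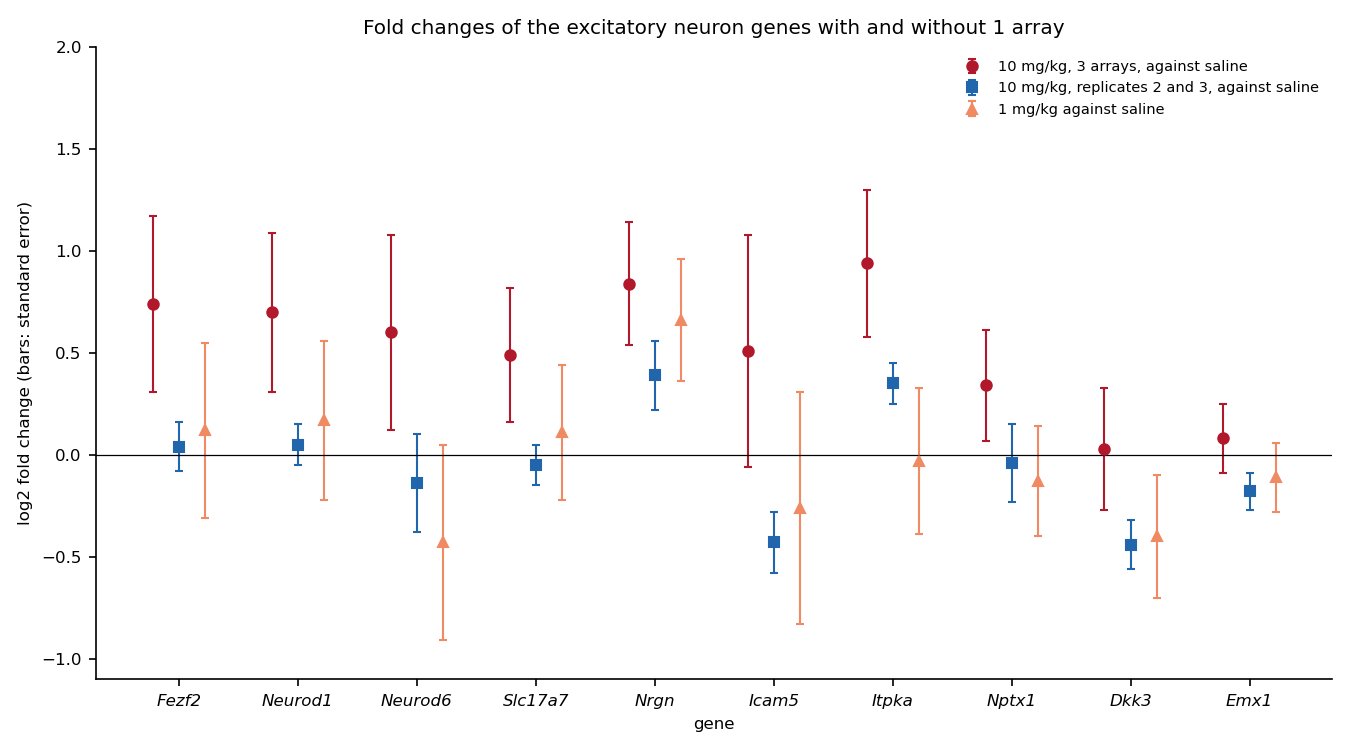
Log2 fold change against saline (vertical axis, bars show the standard error) of each of the 10 genes (horizontal axis) for the 3 arrays labelled 10 mg/kg, for their replicates 2 and 3 alone, and for the arrays labelled 1 mg/kg. With all 3 arrays the values lie above 0 in 10 of 10 genes, and with replicates 2 and 3 in 4 of 10.

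Over the 9 arrays, which include the array the genes were chosen on, the choice itself bears on how the genes correlate. The 45 pairs had a median Pearson correlation of 0.863, from 0.366 to 0.984. Over the 8 arrays without replicate 1 at 10 mg/kg the median was 0.539, from -0.238 to 0.948, with 41 of 45 pairs above 0. These 8 arrays hold replicate 1 of 1 mg/kg and of saline, where the centred mean of the 10 genes was -0.51 and -0.47. As the means over a replicate number hardly differed, the choice may bear on these correlations as well. Fezf2 followed the mean of the other genes most closely, at 0.985 over 9 arrays and 0.910 over 8, and Nrgn least, at 0.704 and 0.256. The points share arrays, normalization and replicate numbers, and the correlations are descriptions.

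The array of the choice bears in the same way on likeness to the 10 genes over 9 arrays. Outside the chosen genes, 12083 single-gene probe sets with a mean of at least 6 were ranked by their correlation with the mean of the 10. Over 9 arrays the 10 highest were Errfi1 and Rprm at 0.990, Mmd and Baiap2 at 0.989, Acvr2a at 0.983, Ddn at 0.982, Kcnq5 at 0.980, Olfm1 and Nfib at 0.978 and Tenm2 at 0.976. Ddn (dendrin), a protein of dendrites in forebrain neurons, had the largest excess of these in replicate 1 at 10 mg/kg, at 2.42. Baiap2, a postsynaptic actin regulator, was at 7.07, 6.18 and 6.11 at 10 mg/kg. Over the 8 arrays without that replicate the 5 highest were Baiap2 and Mmd at 0.963, Errfi1 at 0.959, Iqcb1 at 0.951 and Acvr2a at 0.943. Of these 5, 4 were also among the 10 found with all 9 arrays. The 2 rankings share 8 arrays, among them the low replicate 1 arrays of 1 mg/kg and saline, and are not independent.

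Measured were 22 other genes of cortical and hippocampal excitatory neurons. Of these, 10 were highest in replicate 1 at 10 mg/kg, against 13.3% of all probe sets. The median excess of the 22 was 0.18, with a range of -0.47 to 2.25. Among the 10 was Tbr1, at 3.1 to 3.37 over the 9 arrays, all under 3.59, the second highest negative control. Nr4a3, an orphan nuclear receptor that is also an activity-induced gene, was at 7.72, 5.31 and 6.0 at 10 mg/kg, at 4.85, 5.68 and 5.78 at 1 mg/kg and at 4.67, 5.96 and 5.52 in saline. Lhx2, a LIM homeobox factor of cortex that is also used in thalamus, had an excess of 1.5, and C1ql2, a secreted protein of dentate granule cells, one of 1.18. C1ql2 was not highest in that array, at 7.46 there against 7.79 in replicate 3 of saline. Cux2 and Cux1, factors of upper cortical layers, and Rasgrf2 were lowest of the 9 arrays there, at -0.47, -0.22 and -0.11. In replicates 2 and 3 at 10 mg/kg against saline the 22 genes split into 11 higher and 11 lower with 0 passing, and at 1 mg/kg into 12 higher and 10 lower with 0 passing (limma with the block, at an adjusted p of 0.05).

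Relatives of the chosen genes were mixed in the same array. Of 17 paralogs measured, 4 were highest there, against 13.3% of all probe sets, and the median excess was -0.05. Neurod2, the NeuroD factor of cortical and hippocampal neurons, was at 5.32, 4.34 and 4.39 at 10 mg/kg, at 4.06, 4.43 and 4.61 at 1 mg/kg and at 4.04, 4.46 and 4.24 in saline. Emx2, the partner of Emx1 in the dorsal telencephalon, had an excess of 0.82. Slc17a6, the transporter of thalamic and midbrain glutamate neurons, had 0.23, with values of 11.27, 11.15 and 10.92 at 10 mg/kg, 10.99, 11.07 and 11.02 at 1 mg/kg and 10.82, 11.04 and 11.36 in saline. Slc17a7 and Slc17a6 thus differed in which array was highest. In the dickkopf family Dkk2 and Dkk4 were highest of the 9 arrays there, at 0.30 and 0.14, while Dkk1 had -0.05 and Dkkl1 -0.06. These genes, and also Neurod4 and Icam4, were below 3.59, the second highest negative control, in every array. Among the other paralogs, Itpkb had -0.05, Itpkc 0.03, Nptx2 -0.19, Icam1 -0.18, Icam2 -0.23, Icam4 -0.17, Neurod4 -0.12 and Neurog2 -0.05. Pcp4 and Gap43, which bind calmodulin as Nrgn does, had -0.30 and -0.13. Partners of Nrgn and Itpka at the synapse gave a median of 0.04 over 16 genes, 6 of them highest in that array, against the same 13.3%. Camk2a, the calmodulin-dependent kinase of excitatory synapses, had an excess of 0.84, Gria2 one of 0.50, Homer1 one of 0.44 and Gria1 one of 0.42. In these partners 0 passed in either comparison, with 11 higher and 5 lower in 10 mg/kg replicates 2 and 3, and 12 higher and 4 lower at 1 mg/kg.

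Marker lists of other cells and regions moved with the same array in both directions. The counts of highest genes below stand against 13.3% of all probe sets. Forebrain interneuron genes had a median excess of 0.47, with 5 of 10 highest in replicate 1 at 10 mg/kg, and their mean level was 5.71 there against 5.11 to 5.43 in the other 8 arrays. In Npy and Vip, neuropeptides of cortical interneurons, the excess was 1.60 and 1.58, and in Lhx6, a factor of interneurons from the medial ganglionic eminence, 1.01. Dlx1, Dlx2 and Dlx6, homeobox factors of the same lineage, went the other way, at -0.29, -0.29 and -0.43. Immediate-early genes, which follow neuronal activity, had a median of 0.43, with 6 of 10 highest and Fos at 1.16. Thalamic genes had a median of -0.96 with 0 of 8 highest, and their mean level was 6.96 in that array against 6.57 to 8.38 in the others. Prkcd was at 6.92, 9.37 and 8.46 at 10 mg/kg, at 9.57, 9.88 and 8.96 at 1 mg/kg and at 9.76, 6.56 and 8.73 in saline. Prkcd was thus low both in replicate 1 at 10 mg/kg and in replicate 2 of saline, while the 10 excitatory neuron genes averaged 0.01 in that saline array.

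Genes of striatal medium spiny neurons had a median of -0.22 with 0 of 7 highest, and Ppp1r1b (DARPP-32) and Rasd2 were at -0.61 and -0.70. Tac1 and Rgs9 of this list were above 7 of the other 8 arrays there, at 0.31 and 0.20. Oligodendrocyte genes were below the mean of the other 8 arrays in 10 of 10, with a median of -0.39 and a mean level of 10.34 against 10.53 to 10.90. Microglial genes were lowest in that array in 7 of 8, with a median of -0.34. GABA neuron genes were lowest in 3 of 4 with a median of -0.43, and dopamine neuron genes had a median of -0.18 with 3 of 16 lowest. Over all probe sets the median was -0.013. The share of all probe sets lowest in that array was not counted, so the counts of lowest genes have no background to be set against. Medians of the astrocyte, endothelial, serotonin neuron and cerebellar granule lists were 0.02, 0.14, 0.14 and 0.01. Among choroid plexus genes, with a median of 0.08 over 8, Kcnj13 had 2.31 and Ttr, the most abundant transcript of that tissue, -0.45. Gabra6, a receptor subunit known from cerebellar granule cells, had 0.04. All of these are values of the array the genes were chosen on, and the part of the dissection, of cell composition or of treatment in them was not tested.

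**Figure D3:**
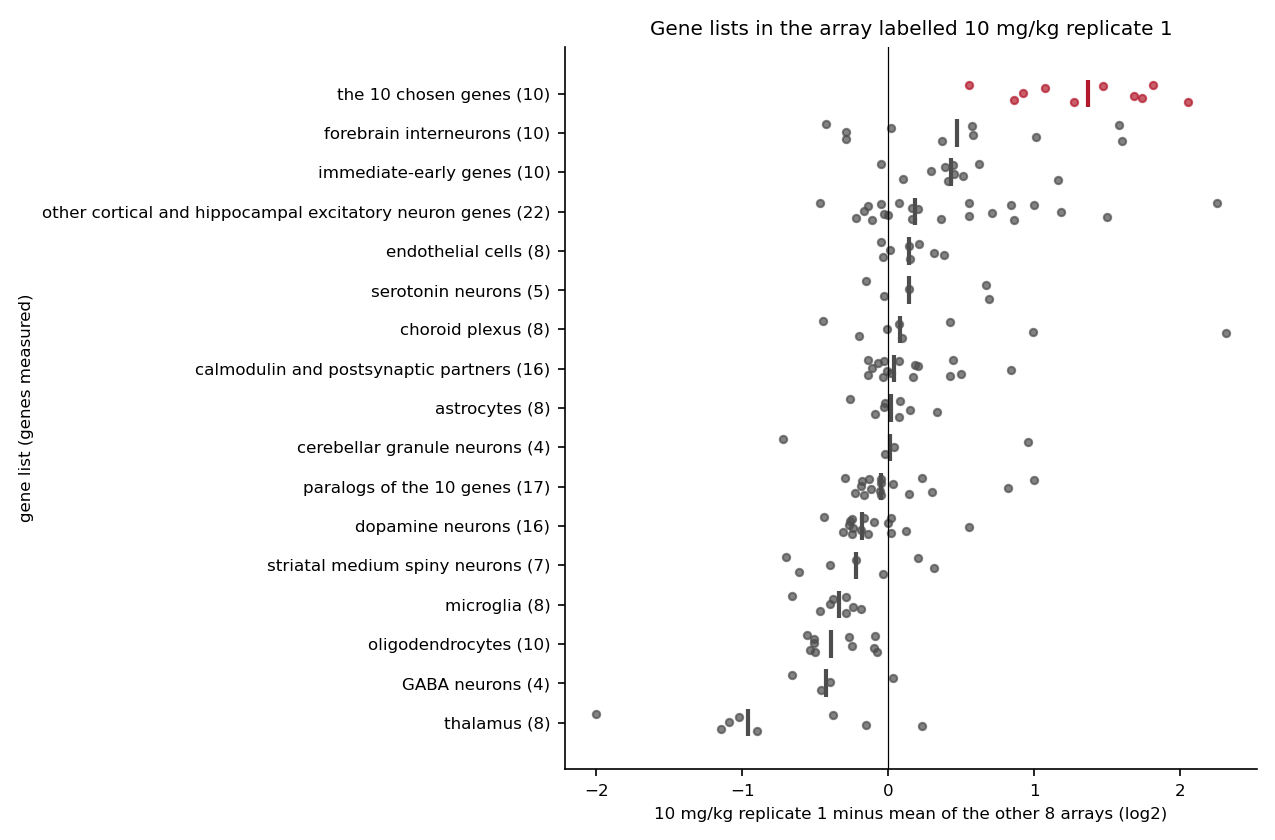
Difference between replicate 1 at 10 mg/kg and the average of the remaining 8 arrays in log2 units (horizontal axis) for each gene (points) of 17 lists (vertical axis, with the number of genes measured), with bars at list medians. The 10 chosen genes lie between 0.55 and 2.05, and the medians of the other lists between -0.96 in thalamus and 0.47 in forebrain interneurons.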

How the data were processed

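The authors summarised the arrays by Robust Multichip Average (RMA), and the deposited values are log2 intensities per probe set. RMA corrects background, equalises the distribution of intensities over arrays and summarises probes, so levels of different probe sets are not comparable. The version of RMA, and whether ComBat was applied before deposit, are not given in the sources used here. Of the 45141 probe sets in the table, 104 are controls and were not tested. Symbols came from the platform annotation, in which 28898 probe sets name 1 gene. None of the members' probe sets names several genes.

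limma 3.58.1 (R 4.3.3) was run on the remaining 45037, with group and replicate number as terms, over 9 arrays for 1 mg/kg and over 8 arrays for replicates 2 and 3 at 10 mg/kg. P-values were two-sided and adjusted over all probe sets by the method of Benjamini and Hochberg at 0.05. The script was tested on simulated data. Promoters came from a RefSeq table on GRCm38.p6. The number of arrays limits the precision. The genes and all lists were chosen with earlier results of these data known. All 10 genes are named, and of the further lists the paralogs and up to 4 genes each with the largest difference in replicate 1 at 10 mg/kg. Cux1, Cux2, Rasgrf2, Dlx1, Dlx2, Dlx6 and Rgs9 were added after their values were seen. Alternatives covered the block, the arrays in the fit, normalization, a filter on dim probe sets, the variance model, probe set choice and each array left out.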

Additional observations from a re-analysis of the deposited data

How the results depend on the processing

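No gene of the 10 passed an adjusted p of 0.05 under any alternative run for either comparison. For 1 mg/kg against saline, limma passed 0 probe sets with the replicate block, 54 without it and 2 with an intensity trend and robust variance, and 0 to 1 when single arrays were left out. For replicates 2 and 3 at 10 mg/kg against saline it passed 0 with the block, 2 with trend and robust variance, 3 with only the arrays of those groups, and 0 to 3 when single arrays were left out. The cause was not tested. Arrays of 1 replicate number correlated at -0.626 to -0.132 in their deviations from group means. The means of the 3 numbers were nearly equal in the deposited values (median F of 0.073 over all probe sets, against 0.828 expected with no effect of number), which makes such correlations negative, so they do not show whether the numbers pair the samples. The median of the 10 genes at 1 mg/kg ran from -0.243 to 0.197 when single arrays were left out, the highest without 1 mg/kg replicate 1. For replicates 2 and 3 at 10 mg/kg it ran from -0.092 to 0.014 with single arrays left out, and was 0.074 without the block and 0.014 with only the arrays of those groups. The median at 10 mg/kg with all 3 replicates ran from -0.042, without replicate 1, to 0.967.

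Several single genes changed sign. Without the replicate block, the 10 mg/kg replicates 2 and 3 gave 0.072 for Neurod6, 0.075 for Slc17a7 and 0.063 for Nptx1, and Nptx1 was at 0.046 with only the arrays of those groups. With single arrays left out, the same comparison ran from -0.103 to 0.124 for Fezf2, from -0.047 to 0.156 for Neurod1, from -0.389 to 0.258 for Neurod6 and from -0.364 to 0.292 for Nptx1. At 1 mg/kg the ranges were -0.181 to 0.519 for Fezf2, -0.15 to 0.492 for Neurod1, -0.902 to 0.052 for Neurod6, -0.114 to 0.426 for Slc17a7, -0.801 to 0.136 for Icam5, -0.37 to 0.22 for Itpka and -0.408 to 0.175 for Nptx1. Under these omissions Nrgn was above 0 in both comparisons, from 0.126 to 0.598 at 10 mg/kg, and the brighter probe sets of Dkk3 and Emx1 were below 0 in both. The dimmer probe set of Emx1 went the other way in replicates 2 and 3 at 10 mg/kg, at 0.14 with all arrays of that fit. There were 3 arrays per group, and 2 at 10 mg/kg where replicate 1 was left out. With these numbers, 2 of the 10 genes near background and Neurod6 and Emx1 little above it, small differences were not detectable.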
